A study of Homo sapiens with 9 samples.

Results

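A set of 5 genes of the antiviral ADP-ribosylation system, PARP9, DTX3L, PARP10, PARP12 and PARP14, were followed together with PARP1 and PARP2 in ACC-MESO-1 cells, an established human mesothelioma line, in which LSD1 was targeted by short hairpin RNA. The 7 genes were taken by symbol. Each had 1 transcript cluster, the array's probe set for a gene, out of 21448 clusters on the Clariom S array. Infected cells carried ShLSD1 #1 (3 arrays, numbered 4 to 6), ShLSD1 #2 (3 arrays, 7 to 9) or a Control hairpin (3 arrays, 1 to 3), and all cells were kept in RPMI-1640 medium with serum. LSD1 is a histone demethylase of repressor complexes, and the series title names its suppression as an approach to mesothelioma with a mesenchymal phenotype. The labels give neither the time after infection nor whether the replicates were separate cultures. P-values therefore measure the spread between these arrays, which may be technical, and all results come from 1 cell line.

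ADP-ribosyltransferases of the PARP family move ADP-ribose from NAD onto proteins. PARP1 and PARP2 bind broken DNA and build long chains of ADP-ribose that draw repair factors. PARP10, PARP12 and PARP14 attach single units, and interferon raises them, like PARP9 and DTX3L, in many cell types. PARP9 carries macrodomains, modules that bind ADP-ribose, and forms a stable complex with DTX3L, a Deltex-family ubiquitin ligase. Interferon-stimulated genes are typically switched on through a promoter element, the ISRE, that a factor complex containing IRF9 binds.

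The start regions of these genes are shown because PARP9, DTX3L, PARP14 and PARP12 carry the core letters of this element there, whereas PARP1 and PARP2 do not. Sequences are RefSeq windows on GRCh38.p14, from 250 bases before to 50 bases after a transcription start. Windows of 6 of the 7 genes were used, and the start region of PARP10 is not reported here. Capitals mark the ISRE core, searched as GAAANNGAA on both strands (TTCNNTTTC on the other). The PARP9 window lies at chr3:122564251-122564550 on the minus strand, DTX3L at chr3:122564088-122564387 on the plus strand, PARP14 at chr3:122680589-122680888 on the plus strand, PARP12 at chr7:140062902-140063201 on the minus strand, PARP1 at chr1:226408044-226408343 on the minus strand and PARP2 at chr14:20343385-20343684 on the plus strand.
PARP9: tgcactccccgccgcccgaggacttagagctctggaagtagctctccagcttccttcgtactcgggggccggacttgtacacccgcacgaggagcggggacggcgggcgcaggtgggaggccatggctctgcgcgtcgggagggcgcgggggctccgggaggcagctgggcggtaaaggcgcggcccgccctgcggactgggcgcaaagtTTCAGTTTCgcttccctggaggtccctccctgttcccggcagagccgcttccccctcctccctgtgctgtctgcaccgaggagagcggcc
DTX3L: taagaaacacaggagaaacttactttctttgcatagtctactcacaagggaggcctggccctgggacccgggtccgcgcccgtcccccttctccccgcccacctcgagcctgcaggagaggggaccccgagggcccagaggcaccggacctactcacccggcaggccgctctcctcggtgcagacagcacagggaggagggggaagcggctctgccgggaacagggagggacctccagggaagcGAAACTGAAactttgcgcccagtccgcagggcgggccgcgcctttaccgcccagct
PARP14: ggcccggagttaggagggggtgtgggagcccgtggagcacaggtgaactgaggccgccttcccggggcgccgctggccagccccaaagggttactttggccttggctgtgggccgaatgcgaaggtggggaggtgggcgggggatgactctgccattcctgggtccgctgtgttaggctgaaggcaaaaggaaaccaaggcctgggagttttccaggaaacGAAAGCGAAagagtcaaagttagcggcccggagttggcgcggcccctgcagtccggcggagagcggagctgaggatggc
PARP12: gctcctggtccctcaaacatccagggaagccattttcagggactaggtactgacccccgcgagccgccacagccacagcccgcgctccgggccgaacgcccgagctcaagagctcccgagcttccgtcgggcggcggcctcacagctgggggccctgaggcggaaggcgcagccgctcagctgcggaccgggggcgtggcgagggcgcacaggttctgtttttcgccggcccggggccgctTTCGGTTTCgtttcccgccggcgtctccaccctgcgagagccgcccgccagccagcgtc
PARP1: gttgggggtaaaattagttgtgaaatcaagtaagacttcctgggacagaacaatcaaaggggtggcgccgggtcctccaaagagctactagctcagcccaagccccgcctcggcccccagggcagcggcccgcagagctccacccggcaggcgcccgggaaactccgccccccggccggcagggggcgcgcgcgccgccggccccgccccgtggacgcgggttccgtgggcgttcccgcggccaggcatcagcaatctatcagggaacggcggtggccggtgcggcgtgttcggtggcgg
PARP2: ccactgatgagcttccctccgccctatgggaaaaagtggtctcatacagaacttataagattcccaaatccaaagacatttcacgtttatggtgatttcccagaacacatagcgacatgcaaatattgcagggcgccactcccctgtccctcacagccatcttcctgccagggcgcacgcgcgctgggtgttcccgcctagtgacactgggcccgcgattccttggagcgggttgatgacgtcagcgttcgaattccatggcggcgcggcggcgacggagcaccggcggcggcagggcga

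PARP9 and DTX3L are read in opposite directions from start sites 38 bases apart, and their windows share 137 bases. The capitals in the PARP9 and DTX3L windows are the same 9 bases, chr3:122564332-122564340, which begin 6 bases before the DTX3L start. They read GAAACTGAA along DTX3L and TTCAGTTTC along PARP9. PARP14 has GAAAGCGAA, beginning 29 bases before its start, and PARP12 has TTCGGTTTC, beginning 9 bases before its start. A second PARP9 window, 446 bases inside DTX3L, holds no match. Of all 35116 windows in the RefSeq table, 8.11% hold the ISRE core. The GAS motif, TTCNNNGAA, which reads the same on both strands and is known from interferon-gamma target genes, occurs in 7.66% of windows and was found once in PARP14, not overlapping its ISRE core, and once in PARP2. The GC box, GGGCGG on either strand, occurs in 45.0% of windows and in every window printed above. A match is a run of letters and was not tested for binding.

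The arrays had close medians, between 6.39 and 6.43 on the log2 scale, and 42.0% to 46.2% of clusters exceeded the 95th percentile of 612 negative control probe sets on their array, which lay between 6.93 and 7.54. Of 8 mesothelial markers, MSLN, KRT8 and KRT18 exceeded it on all 9 arrays and CALB2 and KRT5 on none. Hybridization spike-ins, which do not come from the cells, had mean signals of 10.8 on the 3 ShLSD1 #1 arrays, 10.9 on ShLSD1 #2 replicate 8, 11.2 and 11.3 on ShLSD1 #2 replicates 9 and 7, and 11.3 to 11.4 on Control arrays. The spike-in signal thus moves with the comparison of ShLSD1 #1, and changes of the 7 genes are therefore also given from a fit with a block for high or low spike-in signal, called the spike-in block below. For other genes the block values are given where a call was lost. Only ShLSD1 #2 has arrays on both sides, so the block effect comes from that group, and ShLSD1 #1 has no separate check. Replicate 8 is the only low array there, so the block effect is the gap between this 1 array and replicates 7 and 9. A ShLSD1 #1 change with the block is the main change shifted by that gap. For ShLSD1 #2 the block fit gives the same result as leaving out replicate 8, and both are counted among the alternatives. The transcript of LSD1 was not analysed here, so the depth of the knockdown was not checked.

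PARP9, DTX3L, PARP14 and PARP12 fell with both hairpins, by between 2.68-fold and 5.15-fold, while PARP1 and PARP2 did not pass the test with either. PARP10 did not pass either, but its signals lay under the negative controls. By limma, with Benjamini-Hochberg adjustment over all 21448 clusters and a threshold of 0.05, 4 of the 5 interferon-linked genes were lower with ShLSD1 #1, where 7.94% of all clusters were lower. With ShLSD1 #2 the same 4 were lower, where 6.63% of all clusters were. Lower with both hairpins were 5.32% of clusters. All 6 hairpin arrays lay below all 3 Control arrays for these 4 genes and for 11.3% of clusters. The median change of the 5 genes was -1.76 with ShLSD1 #1 and -2.21 with ShLSD1 #2, against 0.03 and 0.02 for all clusters. Both comparisons use the same Control arrays.

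**Figure D1:**
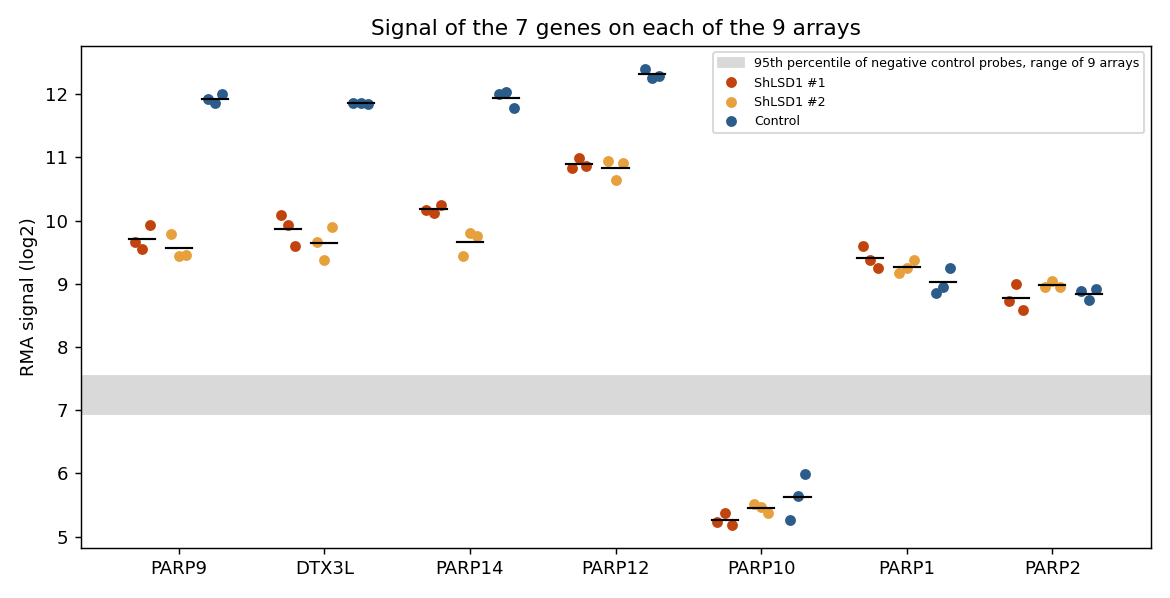
RMA signal (log2, vertical axis) of each gene on every array, with ShLSD1 #1, ShLSD1 #2 and Control from left to right within a gene, points for arrays and bars for group means. The grey band spans the 95th percentiles of the negative control probes, 6.93 to 7.54. For PARP9, DTX3L, PARP14 and PARP12 the 6 hairpin arrays lie below the 3 Control arrays, and PARP10 lies under the band throughout. Heights of different genes are not comparable.

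PARP9, the macrodomain partner of DTX3L, had signals of 9.66, 9.55 and 9.92 on ShLSD1 #1 arrays, 9.79, 9.43 and 9.46 on ShLSD1 #2 arrays, and 11.93, 11.85 and 12.00 on Control arrays (log2). No hairpin array came within 1 log2 unit of a Control array, and the arrays of the 2 hairpins interleaved. The log2 change was -2.21 ± 0.14 with ShLSD1 #1 (SE, n = 3 arrays a group, limma adjusted p = 1.5e-05) and -2.36 ± 0.14 with ShLSD1 #2 (adjusted p = 8.79e-06). These are falls of 4.64-fold and 5.15-fold. Counted from the lowest of all 21448 changes, PARP9 stood 59th with ShLSD1 #1 and 52nd with ShLSD1 #2. With the spike-in block the changes were -2.02 (limma adjusted p = 0.00909) and -2.30 (adjusted p = 0.000108).

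DTX3L, the ubiquitin ligase that shares the start region, had 10.09, 9.93 and 9.60 on ShLSD1 #1 arrays, 9.67, 9.38 and 9.90 on ShLSD1 #2 arrays, and 11.85, 11.86 and 11.85 on Control arrays. Control arrays lay close together (SD 0.0066), and hairpin arrays were more spread (SD 0.25 with ShLSD1 #1 and 0.26 with ShLSD1 #2) without reaching them. The log2 change was -1.98 ± 0.17 with ShLSD1 #1 (SE, limma adjusted p = 6.42e-05) and -2.21 ± 0.17 with ShLSD1 #2 (adjusted p = 3.56e-05), or 3.95-fold and 4.62-fold lower. With the spike-in block the changes were -1.57 (adjusted p = 0.0267) and -2.07 (adjusted p = 0.000208).

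The ratio of PARP9 to DTX3L within arrays did not separate the groups. The log2 difference PARP9 minus DTX3L was -0.16 ± 0.42 on ShLSD1 #1 arrays and -0.086 ± 0.31 on ShLSD1 #2 arrays, against 0.071 ± 0.078 on Control arrays (mean ± SD, n = 3 each). Groups overlapped for both hairpins, and the 2 genes' changes differed by -0.23 with ShLSD1 #1 and -0.16 with ShLSD1 #2 (two-sided exact permutation p = 0.4 and 0.6). Hairpin arrays varied more than Control arrays in this difference: ShLSD1 #1 replicate 6 stood at 0.32 and replicates 4 and 5 at -0.44 and -0.37, while ShLSD1 #2 replicate 9 stood at -0.44 and replicates 7 and 8 at 0.13 and 0.059.

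PARP14, a large macrodomain transferase known as a partner of STAT6 in interleukin-4 signalling, had 10.17, 10.11 and 10.25 on ShLSD1 #1 arrays, 9.43, 9.80 and 9.76 on ShLSD1 #2 arrays, and 12.00, 12.03 and 11.78 on Control arrays. The ShLSD1 #2 arrays lay below the ShLSD1 #1 arrays, and both lay below Control. Changes were -1.76 ± 0.13 with ShLSD1 #1 (SE, limma adjusted p = 3.66e-05) and -2.27 ± 0.13 with ShLSD1 #2 (adjusted p = 7.42e-06), that is 3.39-fold and 4.83-fold lower. With the spike-in block they were -1.97 (adjusted p = 0.00714) and -2.34 (adjusted p = 6.22e-05).

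PARP12, a zinc-finger transferase that restricts alphaviruses and gathers in stress granules, had 10.83, 10.99 and 10.86 on ShLSD1 #1 arrays, 10.93, 10.64 and 10.90 on ShLSD1 #2 arrays, and 12.40, 12.26 and 12.29 on Control arrays. Its fall was the smallest of the 4: -1.42 ± 0.12 with ShLSD1 #1 (SE, limma adjusted p = 6.79e-05) and -1.49 ± 0.12 with ShLSD1 #2 (adjusted p = 5e-05), or 2.68-fold and 2.81-fold. With the spike-in block the changes were -1.14 (adjusted p = 0.0276) and -1.40 (adjusted p = 0.000317). Set against PARP12 within arrays, PARP9 fell further by 0.79 with ShLSD1 #1 and 0.87 with ShLSD1 #2, DTX3L by 0.56 and 0.72, and PARP14 by 0.34 and 0.78 (log2). In each of these comparisons the 3 hairpin arrays did not overlap the 3 Control arrays, and the exact permutation p was 0.1, the smallest that 3 against 3 arrays allow. The share of all clusters that separate from PARP12 in this way was not counted. PARP9, DTX3L and PARP14 were not separated in this way from one another, apart from PARP9 and PARP14 with ShLSD1 #1, where PARP9 fell further by 0.45 (exact permutation p = 0.1).

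PARP10, a transferase that binds the MYC protein, could not be compared with the other interferon-linked genes, because its signals lay under the negative controls. Its signals were 5.23, 5.38 and 5.19 on ShLSD1 #1 arrays, 5.52, 5.47 and 5.37 on ShLSD1 #2 arrays, and 5.26, 5.65 and 5.99 on Control arrays, all below the negative control percentile of their array. The groups overlapped. Changes of -0.37 ± 0.17 with ShLSD1 #1 and -0.18 ± 0.17 with ShLSD1 #2 did not pass (SE, limma adjusted p = 0.192 and 0.579). Without Control replicate 1, the lowest Control value, the ShLSD1 #1 change was -0.55 with adjusted p = 0.0444. Without Control replicate 3, the highest, the changes were -0.19 (adjusted p = 0.482) and -0.0022 (adjusted p = 0.995). They were -0.40 and -0.19 with the spike-in block (adjusted p = 0.649 and 0.665). Since the cluster was not above background in any group, no fold is given, and a change of PARP10 was not detectable on these arrays.

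PARP1, the main sensor of DNA strand breaks, had 9.60, 9.37 and 9.25 on ShLSD1 #1 arrays, 9.18, 9.26 and 9.38 on ShLSD1 #2 arrays, and 8.86, 8.95 and 9.26 on Control arrays. Its changes were 0.38 ± 0.14 with ShLSD1 #1 and 0.25 ± 0.14 with ShLSD1 #2 (SE, limma adjusted p = 0.109 and 0.331). The 95% intervals ran from 0.058 to 0.71 with ShLSD1 #1 and from -0.077 to 0.57 with ShLSD1 #2, and 1 Control array lay among the hairpin arrays. The PARP1 changes were 0.40 and 0.25 with the spike-in block (adjusted p = 0.561 and 0.449). PARP2, its close relative, had 8.73, 8.99 and 8.58 on ShLSD1 #1 arrays, 8.95, 9.04 and 8.95 on ShLSD1 #2 arrays, and 8.88, 8.74 and 8.91 on Control arrays. Its changes were -0.08 with ShLSD1 #1 (95% interval -0.37 to 0.21) and 0.14 with ShLSD1 #2 (-0.15 to 0.42), with limma adjusted p = 0.743 and 0.578. The PARP2 changes were -0.17 and 0.10 with the spike-in block (adjusted p = 0.818 and 0.757). Within arrays the PARP1 change exceeded the PARP2 change by 0.46 with ShLSD1 #1 (exact permutation p = 0.1, no overlap) and by 0.11 with ShLSD1 #2 (p = 0.5, overlapping). The intervals of PARP1 and PARP2 leave out a 2-fold fall with either hairpin.

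**Figure D2:**
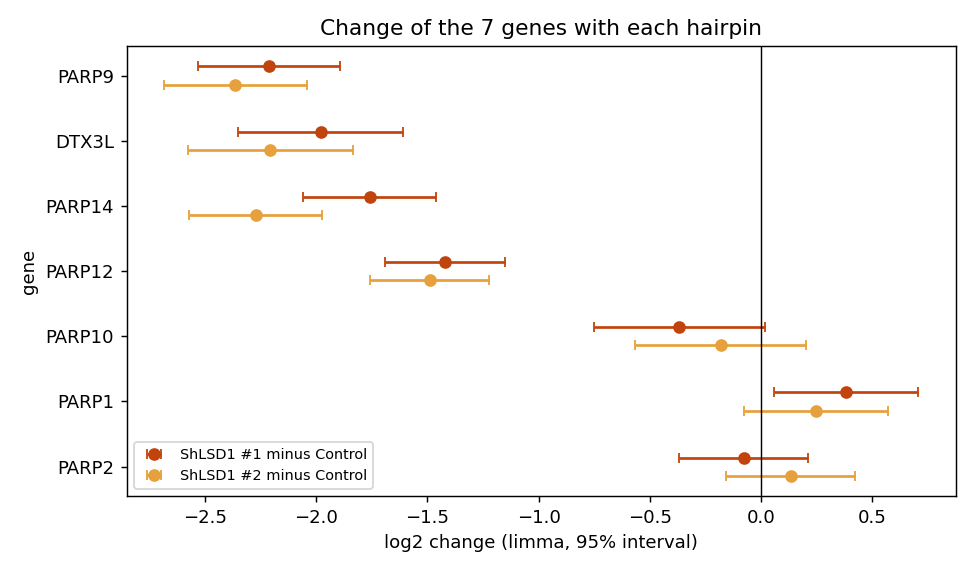
Log2 change of each gene (horizontal axis) with ShLSD1 #1 (upper point) and ShLSD1 #2 (lower point) relative to Control, from limma with 95% intervals. The intervals of PARP9, DTX3L, PARP14 and PARP12 lie wholly below -1, and those of PARP10 and PARP2 include 0.

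Set against PARP1 and PARP2 on the same array, the 4 genes fell in every comparison. The PARP9 change minus the PARP1 change was -2.60 with ShLSD1 #1 and -2.61 with ShLSD1 #2, and minus the PARP2 change -2.14 and -2.50. For DTX3L the differences were -2.36 and -2.46 against PARP1 and -1.90 and -2.34 against PARP2. For PARP14 they were -2.14 and -2.52 against PARP1 and -1.68 and -2.41 against PARP2, and for PARP12 -1.80 and -1.74, and -1.34 and -1.63. In each of these comparisons hairpin and Control arrays did not overlap and the two-sided exact permutation p was 0.1, the smallest possible. The share of all clusters that separate from PARP1 or PARP2 in this way was not counted. PARP10 differed from PARP2 by -0.29 and -0.31 (exact permutation p = 0.4 for each hairpin, overlapping arrays). The PARP10 difference from PARP1 was -0.75 and -0.43 without overlap (exact permutation p = 0.1 for each hairpin). Like every difference from PARP1, it includes the PARP1 changes of 0.38 and 0.25. It also rests on PARP10 signals under the negative controls.

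**Figure D3:**
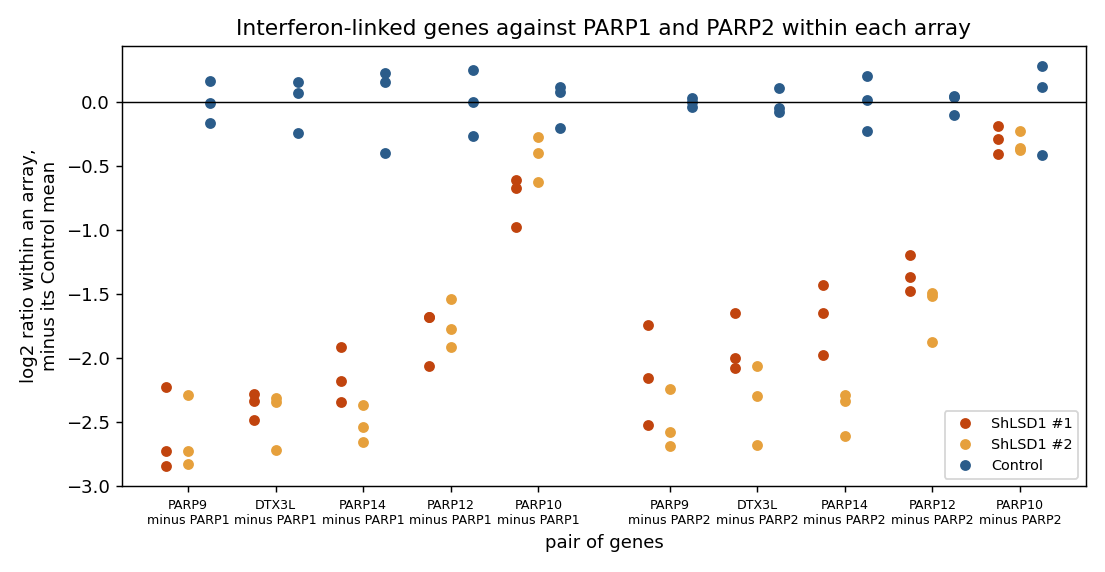
Log2 ratio of each interferon-linked gene to PARP1 (left) or PARP2 (right) within an array, minus the mean ratio of the 3 Control arrays (vertical axis), with 1 point per array. Hairpin arrays of PARP9, DTX3L, PARP14 and PARP12 lie more than 1 below the Control mean, whereas those of PARP10 lie within 1 of it.

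The hairpins were not told apart for any of the 7 genes. By limma 0 of 21448 clusters (0.0%) passed when the arrays of one hairpin were set against those of the other. Of these clusters 1687 had an unadjusted p under 0.05, and limma with a trended robust prior called 42. PARP14 was the member with the largest difference, 0.51 higher with ShLSD1 #1 (95% interval 0.21 to 0.81, unadjusted p = 0.00358, limma adjusted p = 0.479, and between 0.1 and 0.815 over the alternatives). For PARP9 the difference was 0.15 (-0.17 to 0.47), for DTX3L 0.23 (-0.15 to 0.60) and for PARP12 0.07 (-0.20 to 0.34).

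Among the other PARP family genes, 2 of 11 were lower and 0 higher with each hairpin. Lower clusters made up 7.94% of all with ShLSD1 #1 and 6.63% with ShLSD1 #2, and higher clusters 7.85% and 6.56%. ZC3HAV1, also called PARP13 or ZAP, an antiviral protein without transferase activity that binds CpG-rich viral RNA, had 11.60, 11.65 and 11.58 on ShLSD1 #1 arrays, 11.32, 11.37 and 11.54 on ShLSD1 #2 arrays, and 13.21, 13.38 and 13.15 on Control arrays. It fell by 1.64 ± 0.11 with ShLSD1 #1 and by 1.84 ± 0.11 with ShLSD1 #2 on the log2 scale (SE, limma adjusted p = 2.39e-05 and 1.04e-05). PARP3, a transferase that acts at DNA breaks, changed by -1.18 and -1.31 (limma adjusted p = 0.0032 and 0.00201), and with the spike-in block its ShLSD1 #1 change was -0.51 (adjusted p = 0.389). TIPARP, an aryl hydrocarbon receptor target also called PARP7, had changes of -0.18 and -0.04 (adjusted p = 0.475 and 0.903). The median over the 11 genes was -0.18 with ShLSD1 #1 and -0.14 with ShLSD1 #2. RefSeq windows of 9 of these genes, ZC3HAV1 included, were searched, and none held the ISRE core.

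The 4 other Deltex genes, which like DTX3L encode ubiquitin ligases, had 0 calls with either hairpin. DTX2, the only one of them above the negative controls, had changes of -0.07 with each hairpin. Of 8 genes that remove ADP-ribose or carry macrodomains, 1 was lower with each hairpin and 0 higher. Of all clusters, 7.94% were lower with ShLSD1 #1 and 6.63% with ShLSD1 #2. MACROD1, a mono-ADP-ribose hydrolase, changed by -0.70 with ShLSD1 #1 (limma adjusted p = 0.0118), by -0.65 with the spike-in block (adjusted p = 0.334), and had -0.48 with ShLSD1 #2 (0.0693). ADPRS, which removes ADP-ribose from serine, changed by -0.52 with ShLSD1 #2 (adjusted p = 0.041), a call that ended in 13 of 19 alternatives. Its signal exceeded the negative controls on 1 Control array and on no hairpin array. PARG, which digests the chains that PARP1 builds, had changes of -0.01 and 0.11 (adjusted p = 0.984 and 0.703).

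Of 8 partners of PARP1 and PARP2 in strand break repair, 1 was higher and 0 lower with each hairpin. Of all clusters, 7.85% were higher with ShLSD1 #1 and 6.56% with ShLSD1 #2. The 1 gene higher was XRCC1, the scaffold drawn to ADP-ribose chains. XRCC1 had 12.40, 12.26 and 12.14 on ShLSD1 #1 arrays, 12.14, 12.08 and 12.01 on ShLSD1 #2 arrays, and 11.69, 11.66 and 11.50 on Control arrays. All 6 hairpin arrays lay above the Control arrays, a pattern whose share over all clusters was not counted. XRCC1 rose by 0.65 ± 0.12 and 0.46 ± 0.12 on the log2 scale (SE, limma adjusted p = 0.00468 and 0.0282). With the spike-in block the changes were again 0.65 and 0.46, with adjusted p = 0.204 and 0.0755. The ShLSD1 #2 call also ended without any 1 Control array or without ShLSD1 #2 replicate 7 (0.0551 to 0.0997). HPF1, which joins PARP1 to direct it to serine, had changes of -0.07 and 0.003 (adjusted p = 0.774 and 0.995).

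Of 14 genes of NAD supply and use, 4 were lower with ShLSD1 #1 and 5 with ShLSD1 #2, and 0 were higher. Of all clusters, 7.94% and 6.63% were lower. The signal of 6 of the 14 genes exceeded the negative controls on no array. NNMT, which methylates nicotinamide, the product of every PARP reaction, had 7.05, 7.35 and 7.43 on ShLSD1 #1 arrays, 7.20, 7.26 and 7.55 on ShLSD1 #2 arrays, and 9.09, 9.09 and 9.11 on Control arrays. No hairpin array overlapped a Control array. It changed by -1.82 ± 0.14 and -1.76 ± 0.14 (SE, limma adjusted p = 4.26e-05 and 4.8e-05) to signals near the negative controls. QPRT, which feeds tryptophan breakdown into NAD, changed by -0.88 and -0.81 (adjusted p = 0.00676 and 0.0115). Its ShLSD1 #1 change was -0.54 with the spike-in block (adjusted p = 0.438), and over the high spike-in arrays alone its ShLSD1 #2 change was -0.70 (adjusted p = 0.0664). NADSYN1, which makes NAD in the last step of that route, changed by -0.66 and -0.64 (adjusted p = 0.0136 and 0.0189). The ShLSD1 #1 change was -0.88 with the spike-in block (adjusted p = 0.154) and -0.58 without Control replicate 3 (0.0535). The ShLSD1 #2 change was -0.71 among arrays of high spike-in signal (0.0707) and between -0.64 and -0.51 without Control replicate 2 or 3 or ShLSD1 #2 replicate 9 (0.0544 to 0.0715). NADK, which turns NAD into NADP, changed by -0.45 with ShLSD1 #2 (adjusted p = 0.0301), a call that ended in 8 of 19 alternatives. NMNAT2, the remaining call, never exceeded the negative controls.

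**Figure D4:**
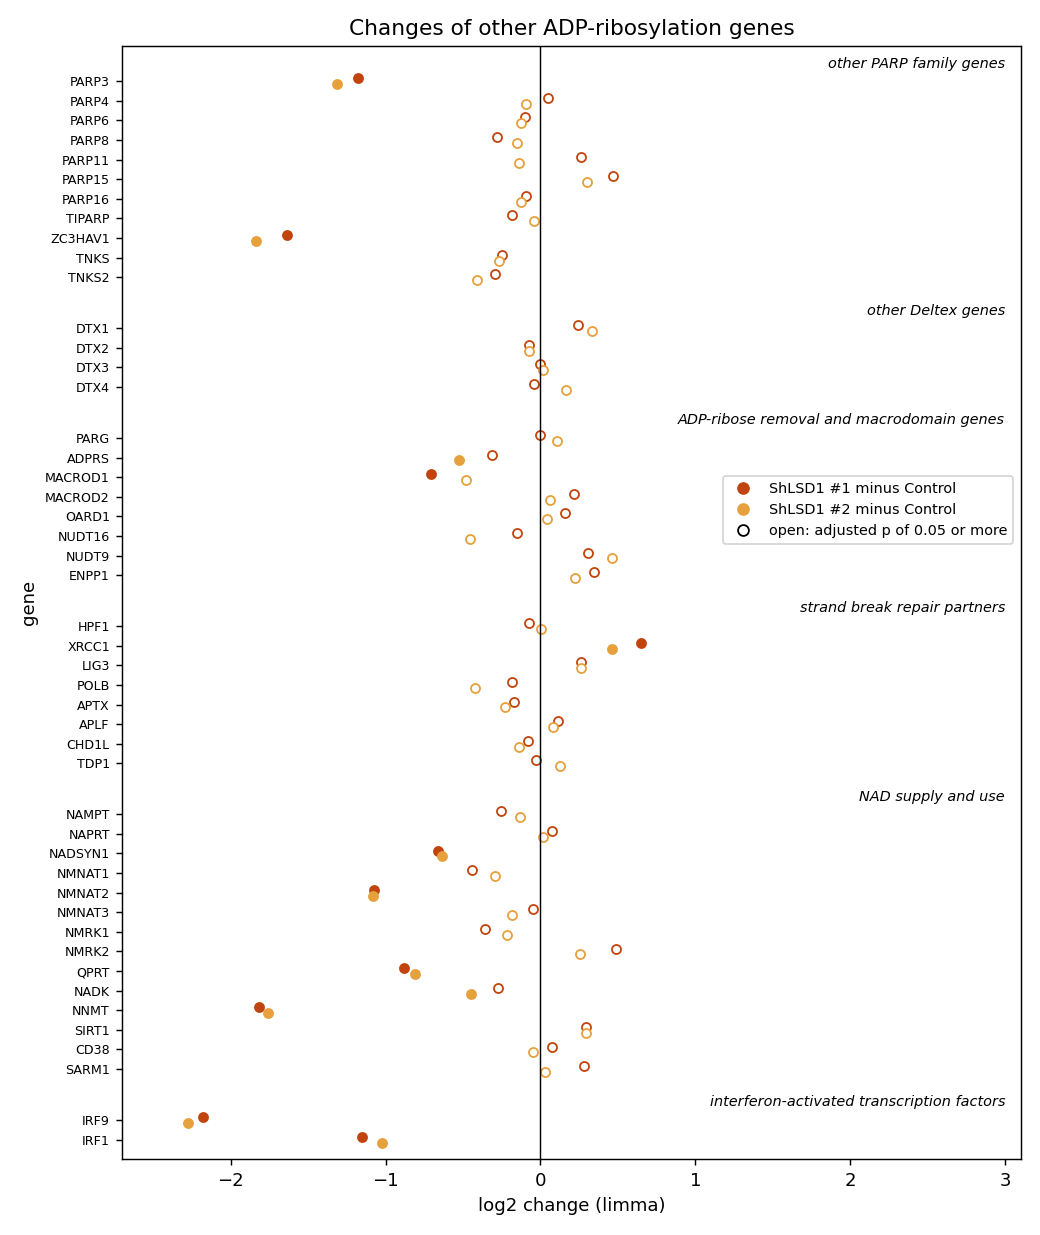
Log2 change (horizontal axis) of the other genes of ADP-ribosylation and NAD and of IRF9 and IRF1 with ShLSD1 #1 (red, upper) and ShLSD1 #2 (orange, lower) relative to Control, filled where the limma adjusted p was under 0.05. ZC3HAV1, NNMT and IRF9 lie between -1.64 and -2.27 with both hairpins, and most of the other genes lie within 0.5 of 0.

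Both interferon-activated transcription factors followed here, IRF9 and IRF1, were lower with each hairpin. IRF9, the DNA-binding subunit of the complex that recognises the ISRE, had 10.04, 9.85 and 9.47 on ShLSD1 #1 arrays, 9.63, 9.55 and 9.89 on ShLSD1 #2 arrays, and 11.93, 11.97 and 12.00 on Control arrays. Hairpin and Control arrays did not overlap. IRF9 had changes of -2.18 ± 0.16 for ShLSD1 #1 and -2.27 ± 0.16 for ShLSD1 #2 (SE, limma adjusted p = 3.04e-05 and 2.16e-05). IRF1, which binds related letters, changed by -1.15 and -1.02 (adjusted p = 0.000383 and 0.000804), and with the spike-in block its ShLSD1 #1 change was -1.13 (adjusted p = 0.0646). IRF9 was also the gene whose profile was most like that of DTX3L, with a root mean square difference of 0.13 log2 units over the 9 arrays after the Control mean was taken off. By that measure PARP14 was 0.27 and PARP9 0.30 from DTX3L. The order of near genes was not tested.

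By the same measure over 9 arrays, PARP9 was nearest to IDO1, which degrades tryptophan, and to RIGI, a sensor of viral RNA (0.19). IDO1 exceeded the negative controls on 3 of the 9 arrays only, so its distance to PARP9 and its rank carry no meaning and no value is given. After IRF9, DTX3L was nearest to CEACAM1, an adhesion receptor whose relatives may share probe signal (0.16). PARP12 was nearest to TNFRSF10B, a receptor for the death ligand TRAIL (0.060), and to SERPINB1, a protease inhibitor (0.091). PARP14 was nearest to HERC5, the ligase that attaches ISG15 (0.17), and to ARL14EPL (0.19). For PARP10, whose signal was below background, they were ZNF829 and CPA3, neither of which passed the test, and no distance is given. RIGI, CEACAM1, TNFRSF10B, SERPINB1, HERC5 and ARL14EPL were lower with both hairpins. This follows from how they were picked, by likeness to genes that fell, and is not a separate result.

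PARP9, DTX3L, PARP15 and PARP14 lie side by side on chromosome 3. Of 10 further protein-coding genes measured inside or within 5 genes of this run, 1 was lower and 0 higher with each hairpin. Of all clusters, 7.94% were lower with ShLSD1 #1 and 6.63% with ShLSD1 #2. Of the 10 genes, 4 did not exceed the negative controls on any array. PARP15, which sits between DTX3L and PARP14, had 4.44, 3.89 and 3.73 on ShLSD1 #1 arrays, 4.15, 3.73 and 3.67 on ShLSD1 #2 arrays, and 3.83, 3.51 and 3.32 on Control arrays, all below the negative controls, so a fall could not have been seen. KPNA1, an importin next to PARP9, changed by -0.53 ± 0.13 and -0.61 ± 0.13 (SE, limma adjusted p = 0.0261 and 0.0156). With ShLSD1 #1 the change was -0.43 with the spike-in block (adjusted p = 0.486), and the call was also lost without Control replicate 2 or 3 or ShLSD1 #1 replicate 4 or 6 (0.0581 to 0.0853). With ShLSD1 #2 the change was -0.57 with the spike-in block (adjusted p = 0.0567) and over the high spike-in arrays alone (0.112). The call was also lost without Control replicate 3 or ShLSD1 #2 replicate 9 (0.0527 and 0.0502). The median change of the 10 genes was 0.07 with ShLSD1 #1 and 0.02 with ShLSD1 #2.

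**Figure D5:**
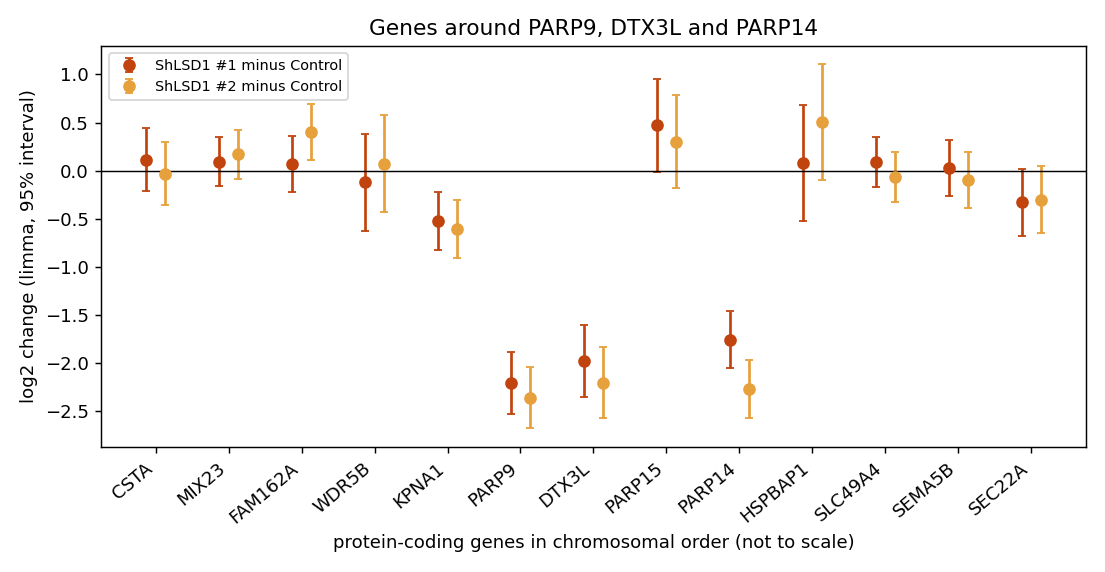
Log2 change (vertical axis, limma with 95% intervals) of protein-coding genes in their order along chromosome 3, with ShLSD1 #1 left and ShLSD1 #2 right within a gene, relative to Control. PARP9, DTX3L and PARP14 lie between -1.76 and -2.36, KPNA1 at -0.53 and -0.61, and the other genes within 0.6 of 0.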

How the data were processed

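Transcript levels of ACC-MESO-1 cells were measured on 9 Clariom S arrays from 100 ng of total RNA each. The deposited values are log2 signals per transcript cluster that the authors made with RMA (background correction, quantile normalization and probe summary) in Affymetrix Expression Console 1.4, per the submitters' processing notes. Base 2, which RMA uses by default, was assumed. RMA forces equal distributions, so changes are relative to the other clusters.

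Of 24351 probe sets, 2903 control probe sets were set aside. All 21448 clusters were tested without a filter, and 17709 had 1 gene symbol in the array annotation. limma 3.58.1 in R 4.3.3 (lmFit, eBayes without trend) fitted the 3 groups together, and p-values were adjusted by Benjamini-Hochberg over all clusters. Ratios of genes within arrays were compared by two-sided exact permutation over arrays (scipy 1.17.1). The procedure was tested on simulated data. Promoter motifs were matched by letters in RefSeq windows.

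Members, lists, motifs and tests were chosen with earlier results of these data known. Named genes were all members, those of 7 lists past the threshold, a few listed in any case, and the 2 genes nearest in profile to each interferon-linked member. Some listed genes are not reported here. Alternatives were other normalizations, filters, priors, weights and sample sets, a block for high or low spike-in signal, and each array left out. Plots were drawn with matplotlib 3.10.9.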

Additional observations from a re-analysis of the deposited data

How the results depend on the processing

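The falls of PARP9, DTX3L, PARP12 and PARP14 with each hairpin passed the threshold in all 37 alternative fits run per gene, with adjusted p of at most 0.00909, 0.0267, 0.0276 and 0.00714. PARP1 and PARP2 passed in none of 37. The 37 pool the fits of both hairpins. The ShLSD1 #2 block fit and the fit without ShLSD1 #2 replicate 8 are the same for that hairpin, and both are counted in the 37. Some of the 37, such as fits without an array of the other hairpin, keep a gene's change and alter only its p-value. The count of interferon-linked genes lower with ShLSD1 #1 was 4, and 5 without Control replicate 1, when PARP10 joined (-0.55, adjusted p = 0.0444); over the other arrays left out it was 4. The differences of the interferon-linked genes from PARP1 and PARP2 moved by less than 1 SD, pooled over the hairpin and Control arrays, under each alternative run for them, though in some cases by more than the SD of 1 group. They ranged from -2.78 to -1.28 for PARP9, DTX3L, PARP12 and PARP14 and from -0.85 to -0.15 for PARP10. The alternatives run for them were other normalizations, low signals raised to the negative controls and arrays left out. The spike-in block was not run for these differences, so their ranges do not cover it. Clusters passing with ShLSD1 #1 numbered 3385, and 399 with the spike-in block, whose effect rests on ShLSD1 #2 replicate 8. With ShLSD1 #2 they numbered 2827, and 1450 among the 5 arrays of high spike-in signal, a fit of fewer samples. Between the hairpins they numbered 0, 3 when signals under the negative control percentile were set to it and 42 with a trended robust prior. Otherwise the cause was not tested. No paired analysis was possible because the groups share no replicate numbers. The number of arrays limits the precision, and PARP10 and PARP15 lay below the negative controls.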
